A study of Mus musculus with 2 samples.

Results

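The annexins and the S100 proteins, a pair of calcium-binding protein families, were examined in luminal cells of the mouse mammary gland. Members were all genes with an annexin symbol (Anxa and a number) or an S100 symbol (S100a and a number, S100b, S100g, S100z or S100pbp) that had an array probe set annotated to that symbol alone. This rule gave 19 genes, 8 annexin and 11 S100 genes, of 13869 genes with a value. The cells came from 3 adult virgin female Tbx3-Venus-KI mice of 5 months on an FVB background, in which the Venus fluorescent protein replaces 1 copy of Tbx3, so that all cells of both groups were heterozygous for Tbx3. After exclusion of dead cells, CD45+ cells and stromal cells, luminal cells were identified by CD24 and CD49f, and 200000 luminal Venus High cells (high activity of the Tbx3 promoter) and 200000 luminal Venus Low cells (low or negative) were sorted from the pool of the 3 mice. RNA of each population was hybridized on 1 Affymetrix mouse expression array. There were no replicates, so no difference below has a replicate check or a p-value, and the number of arrays limits the precision.

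Annexins bind negatively charged membrane lipids when calcium rises, and they take part in vesicle traffic, in membrane repair and in linking membranes to the actin cortex. S100 proteins are small EF-hand calcium sensors that change shape on binding calcium and then dock onto target proteins, annexins among them. S100a10 joins Anxa2 in a complex beneath the plasma membrane, S100a6 can bind Anxa11, and S100a8 and S100a9 form calprotectin, an abundant protein of neutrophils. Most S100 genes lie side by side in the epidermal differentiation complex, next to genes of the cornified envelope of skin. In the mammary gland, some luminal cells carry receptors for ovarian hormones, and others belong to the lineage that secretes milk. Tbx3 encodes a T-box transcription factor, and the comparison asks which genes differ between luminal cells by the activity of its promoter.

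The deposited values are log2 signals with a floor at a signal of 10 (3.32 on the log2 scale). In the table analysed here, 0 probe sets had a signal that was lower in the Venus High sample, so the differences of all genes lie at or above 0 by construction, and genes lower in this sample are not analysed here. Median centring and quantile normalization, used below as alternatives, were computed on this same table. They therefore lower differences by construction, and a negative value after them does not settle a direction. The median log2 difference, Venus High minus Venus Low, over the 3847 genes that reached a signal of 100 on either array was 0.46, and the differences of the annexin and S100 genes are read beside it. These 3847 genes are called all genes below. They leave out any gene lower in the Venus High sample, so shares over them are not shares of the whole array. The annexin and S100 counts have the same limit. The pooled SD of the difference between probe sets that share a gene was 0.31 (1062 genes), which covers differences within these 2 arrays and not between animals. It may be too small, since probe sets lower in the Venus High sample are not in the table. Of 7 markers of hormone-sensing cells, 5 had a value, and the summed signal of these 5 was 14821 in the Venus High sample and 510.3 in the Venus Low sample. None of 9 alveolar markers had a value. The markers of other cell types that had a value stayed below a signal of 100 on both arrays, and all that had one were at the floor for basal cells (5 of 7 listed), myeloid cells (5 of 10), adipocytes (3 of 4) and Schwann cells (1 of 3).

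Of the 19 annexin and S100 genes, 12 reached a signal of 100 on either array, 6 of each family. S100a14 and Anxa6 reached it on the Venus High array only, so they entered the counts below through the array where they are high. S100a14, S100a6 and Anxa3 were at least 4-fold higher in the Venus High sample, that is 3 of 12 genes (25.0%), against 8.58% of the 3847 genes (330 genes). At 2-fold, Anxa6 was added, which gave 4 of 12 genes (33.3%), against 21.6% of all genes. Once the arrays were centred or quantile-normalized, Anxa6 was below 2-fold and Anxa3 below 4-fold, while S100a14 and S100a6 stayed above 4-fold. Under these settings 5.74% and 5.59% of all genes were at least 4-fold higher. The median log2 difference was 0.52 for the 6 annexin genes and 0.78 for the 6 S100 genes, with the annexin median at -0.14 and the S100 median at 0.12 after median centring of the arrays, where the median of all genes was -0.20. Of the 12 genes, 8 lay above the median difference of all genes and 4 below it. In a bulk sample, more cells that express a gene and more RNA per cell cannot be told apart, and this holds for each difference below.

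**Figure D1:**
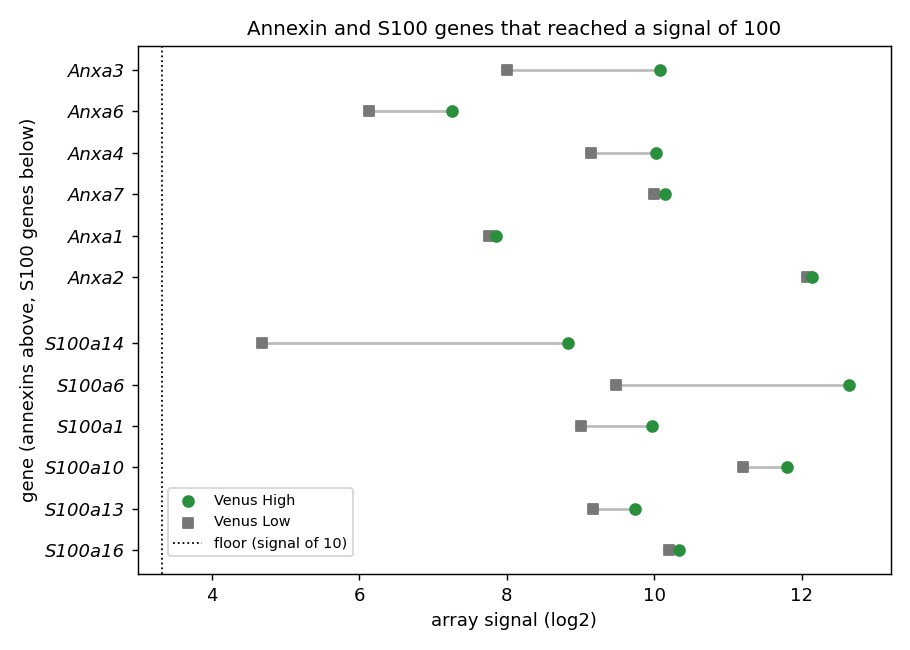
Array signal (log2, horizontal axis) of the 6 annexin and 6 S100 genes that reached a signal of 100, on the Venus High array (green circles) and on the Venus Low array (grey squares), with the floor as a dotted line. The widest gaps are those of S100a14 (8.83 and 4.69), S100a6 (12.63 and 9.48) and Anxa3 (10.07 and 8.0), and the points of Anxa2, Anxa1, S100a16 and Anxa7 nearly coincide. Signals of different genes come from different probe sets and cannot be set against each other.

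S100a6 and S100a14 stood apart from the other S100 genes. S100a6 encodes calcyclin, a calcium sensor of proliferating and secretory cells that binds annexins and the ubiquitin ligase adaptor Cacybp. It had a log2 signal of 12.63 in the Venus High sample and 9.48 in the Venus Low sample, or 6346 and 713 on the linear scale. S100a6 was therefore high on both arrays and 8.90-fold higher in the Venus High sample, and 4.50% of all genes that reached a signal of 100 had a difference at least as large as its 3.15. The difference was 2.49 after median centring and 2.52 after quantile normalization, and its probe set is of the _a_at type, which matches several transcripts of a gene. S100a14, a member best known from epithelia, had a log2 signal of 8.83 in the Venus High sample and 4.69 in the Venus Low sample, or 456 and 25.8 on the linear scale. It was 17.7-fold higher in the Venus High sample, a log2 difference of 4.14, which 2.52% of the genes reached. The Venus Low signal of S100a14 lay not far above the floor. Setting the floor at 100 gave a difference of 2.19, still above 4-fold, and it was 3.49 after median centring and 3.39 after quantile normalization. Each of these genes had 1 probe set in the table, so neither difference could be compared with that of another probe set.

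The other 4 S100 genes that reached a signal of 100 were each less than 2-fold higher. S100a1, a regulator of calcium handling in muscle, had 9.97 in the Venus High sample and 9.01 in the Venus Low sample on the brighter of its probe sets, a difference of 0.97 on the log2 scale. Its other probe set had 8.43 and 7.84 (0.60). The difference of S100a1 was 0.31 after median centring and 0.25 after quantile normalization. S100a10, the partner of Anxa2, had 11.80 in the Venus High sample and 11.21 in the Venus Low sample, a difference of 0.60. All 3 probe sets of S100a10 gave similar differences, between 0.40 and 0.60. S100a13, which helps to export growth factors that lack a signal peptide, had 9.74 in the Venus High sample and 9.16 in the Venus Low sample (0.58). S100a16, a widely expressed member, had 10.33 in the Venus High sample and 10.20 in the Venus Low sample. Its differences of 0.13 and 0.08 on a pair of probe sets were below the SD between probe sets, so the populations were not told apart for this gene. After median centring or quantile normalization the differences of S100a10, S100a13 and S100a16 were negative. Neither sign settles their direction, since the table holds no lower probe sets and both settings lower differences by construction.

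S100pbp was counted among the 11 S100 genes by its symbol. By its name it encodes a binding protein of an S100 protein, and it is not itself an S100 gene. It stayed below a signal of 100, with 6.33 in the Venus High sample and 6.00 in the Venus Low sample on 1 probe set. Its other probe set was at the floor on both arrays. S100a5, S100a9, S100b and S100g lay at the floor throughout. S100a9 is a marker of neutrophils and monocytes, S100b of glial cells, and S100g encodes a calcium buffer of intestine and uterus. Of 10 myeloid markers listed, the 5 with a value (Ptprc, Itgam, Lyz2, Elane and Mpo) were at the floor on both arrays as well. The other 5 (Cd68, Csf1r, Cd14, Ly6g and Adgre1) had no value. A marker lower in the Venus High sample would be missing here, so myeloid signal in the Venus Low sample cannot be judged. S100a2, S100a3, S100a4, S100a8 and S100z are not analysed here, and neither is S100a11, whose probe set in the table is annotated to further symbols as well.

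Anxa3 showed the largest difference among the 6 annexin genes that reached a signal of 100. It had a log2 signal of 10.07 in the Venus High sample and 8.0 in the Venus Low sample on its 1 probe set, or 1076 and 256 on the linear scale. Both values lay well above the floor, and Anxa3 was 4.20-fold higher in the Venus High sample, with a log2 difference of 2.07 that lies just above the 4-fold threshold. After median centring it was 1.41 and after quantile normalization 1.39, both below 4-fold, though these settings lower differences by construction in this table. Of all genes that reached a signal of 100, 8.21% had a difference at least as large.

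Anxa6 and Anxa4 followed with smaller differences. Anxa6, a large annexin that arose by duplication of the annexin core and is found on plasma membranes and endosomes, had 7.25 in the Venus High sample and 6.13 in the Venus Low sample. It was 2.18-fold higher in the Venus High sample, but the Venus Low signal was below 100, and its log2 difference was 0.61 with the floor at 100, 0.46 after median centring and 0.40 after quantile normalization. Its dimmer probe set had 5.50 and 4.98 (0.52). Anxa4, an annexin of the apical membrane of secretory epithelia, had 10.02 in the Venus High sample and 9.14 in the Venus Low sample on its brightest probe set, a difference of 0.88. This difference was 0.22 after median centring and 0.18 after quantile normalization. The other probe sets of Anxa4 had 9.45 and 8.36 (1.08) and 8.61 and 6.69 (1.92). The size of the difference varied by 1.04 on the log2 scale between the 3 probe sets of Anxa4. Their shared direction carries no weight, since no probe set in the table is lower in Venus High cells.

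**Figure D2:**
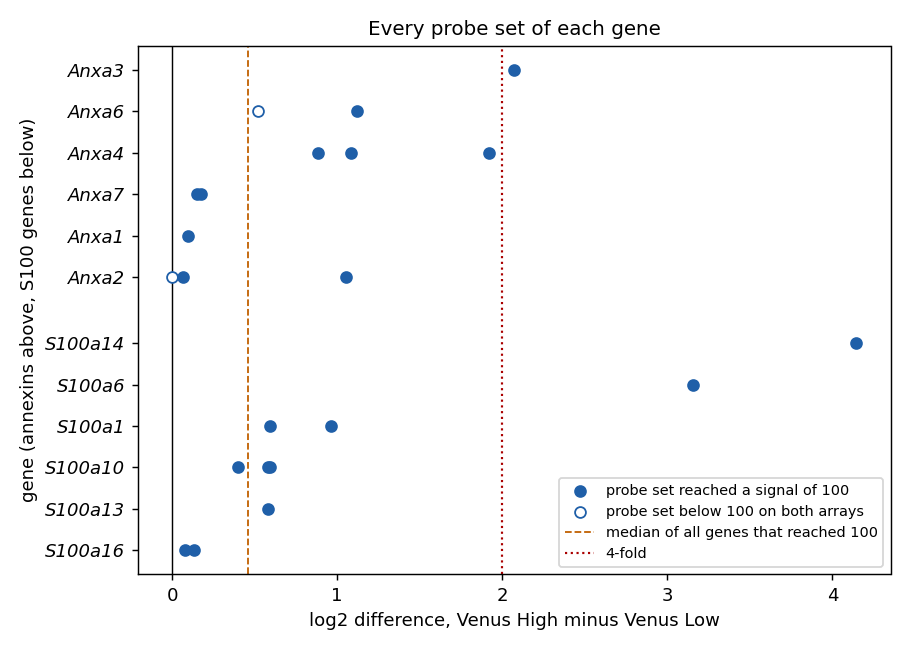
Log2 difference, Venus High minus Venus Low (horizontal axis), on every probe set in the table of the 12 genes that reached a signal of 100. Filled points are probe sets that reached a signal of 100 and open points those below it on both arrays, and the dashed line is the median of all genes that reached 100 (0.46). The probe sets of S100a10 and S100a16 lie close together, and those of Anxa2 and Anxa4 are spread over more than 1 log2 unit.

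Anxa2, Anxa7 and Anxa1 had nearly equal signals in both populations. Anxa2, which ties membranes to actin and binds tissue plasminogen activator at the cell surface, had 12.14 in the Venus High sample and 12.07 in the Venus Low sample, a difference of 0.07. Its other probe sets did not give the same picture: 1 had 6.95 in the Venus High sample and 5.90 in the Venus Low sample (1.06), with a name ending in _x_at that marks probes shared with other transcripts, and the third lay at the floor in both samples. The brightest probe set was taken for Anxa2 by the rule, and with the median of its probe sets on each array the difference would be 1.06. Anxa7, or synexin, which promotes the fusion of secretory granules, had 10.14 in the Venus High sample and 9.99 in the Venus Low sample (0.15), and 7.04 and 6.86 on its other probe set (0.18). Anxa1, an inhibitor of phospholipase A2 that is induced by glucocorticoids, had 7.86 in the Venus High sample and 7.76 in the Venus Low sample (0.09) on its 1 probe set, which is annotated through an expressed sequence tag. All 3 differences were below the SD between probe sets, so no direction is given for these genes. They were negative after median centring or quantile normalization, which lower differences by construction in this table. Anxa10 and Anxa13, annexins of stomach and of intestine and kidney, were at the floor on both arrays. Anxa5, Anxa8, Anxa9 and Anxa11 are not analysed here. A gene with probe sets outside the table may be represented here by a dimmer one.

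**Figure D3:**
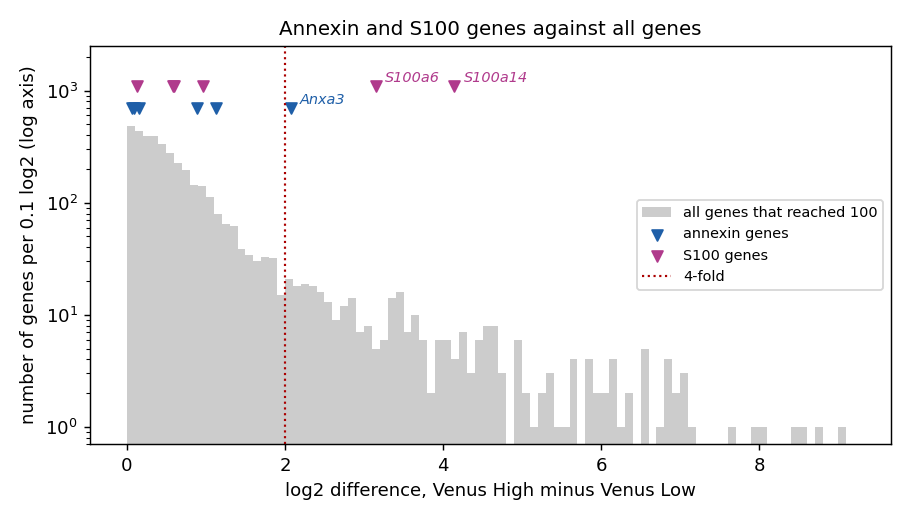
Number of genes (vertical axis, log scale) by log2 difference, Venus High minus Venus Low (horizontal axis), for the 3847 genes that reached a signal of 100, with triangles for the 6 annexin genes (blue) and 6 S100 genes (magenta) and a dotted line at 4-fold. Anxa3 lies just past the line, S100a6 and S100a14 lie at 3.15 and 4.14, and the other 9 genes lie where most genes do. The histogram starts at 0 because no probe set in the table was lower in Venus High cells.

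S100a14 and S100a6 are not neighbours of each other. In the RefSeq annotation (GRCm38.p6), 15 S100a genes lie on chromosome 3, of which 8 are members with a value. S100a14 (4.14) lies between S100a13 (0.58) and S100a16 (0.13), and S100a6 (3.15) lies after S100a5, which was at the floor on both arrays. S100a1 and S100a13 overlap at their starts, and their differences were 0.97 and 0.58. The same chromosome region holds genes of the cornified envelope. Of 14 such genes and S100-fused-type genes listed, 11 had a value, 7 of these lay at the floor in both samples and 1, Sprr1a, reached a signal of 100. Sprr1a, a small proline-rich precursor of the cornified envelope, had 9.57 in the Venus High sample and 4.29 in the Venus Low sample and was 38.9-fold higher (a log2 difference of 2.93 where the floor is set at 100). The keratinocyte markers with a value, 3 of 5, had a summed signal of 51.7 in the Venus High sample and 32.5 in the Venus Low sample, and Ivl was at the floor on both arrays. Their part in the S100 differences was not tested.

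**Figure D4:**
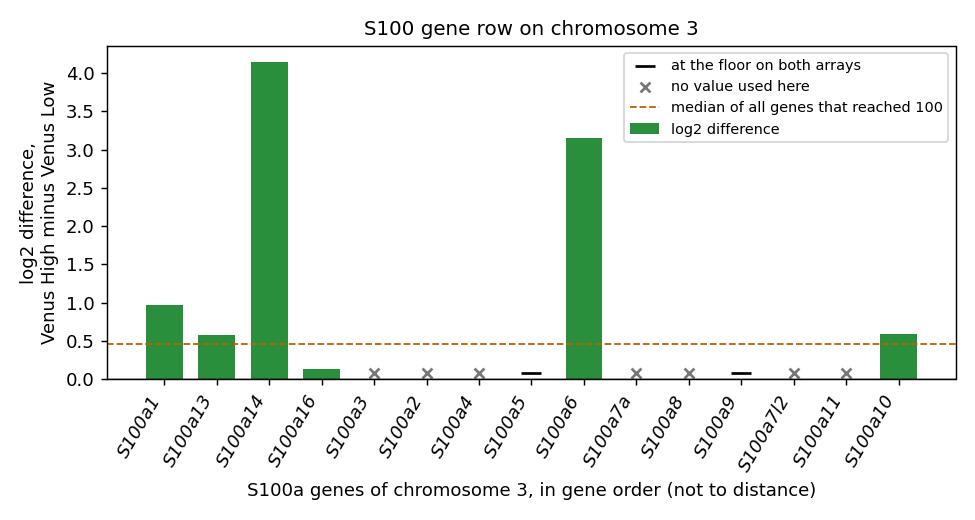
Log2 difference, Venus High minus Venus Low (vertical axis), of the S100a genes of chromosome 3 in their order along the chromosome (horizontal axis, not to distance). Bars are genes above the floor, black dashes S100a5 and S100a9 at the floor on both arrays, and crosses genes with no value used here. The bars of S100a14 and S100a6 stand above 3 and the other bars lie below 1.

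For the start regions of these genes, the sequence before the annotated start was read from RefSeq (GRCm38.p6), which matched 14 of the 19 genes. S100a14, Anxa3, Anxa6, S100a10 and Anxa13 were not matched. The 250 bases before the start are shown for S100a6, the matched gene with the largest difference, and for Anxa2, the matched gene with the smallest difference among those that reached a signal of 100. The first lies at chr3:90612644-90612893 on the plus strand and the second at chr9:69453433-69453682 on the plus strand. Capitals mark matches, on either strand, to a T-box motif (AGGTGTGA), a nuclear receptor half-site (AGGTCA), an AP-1 motif (TGAGTCA), a forkhead motif (TGTTTAC), the GC box (GGGCGG), the TATA box (TATAAA) or a STAT motif (TTCNNNGAA).
S100a6: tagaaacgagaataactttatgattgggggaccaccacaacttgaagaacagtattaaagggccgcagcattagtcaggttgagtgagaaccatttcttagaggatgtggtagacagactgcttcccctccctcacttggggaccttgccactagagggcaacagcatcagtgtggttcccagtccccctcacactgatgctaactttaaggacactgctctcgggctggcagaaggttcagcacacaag
Anxa2: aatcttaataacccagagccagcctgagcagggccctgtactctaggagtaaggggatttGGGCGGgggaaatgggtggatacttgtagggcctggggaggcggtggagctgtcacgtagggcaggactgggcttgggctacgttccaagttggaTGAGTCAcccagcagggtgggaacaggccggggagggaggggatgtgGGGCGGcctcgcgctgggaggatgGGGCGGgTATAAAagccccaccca
The S100a6 region held 0 matches to these motifs. The Anxa2 region held 3 GC boxes, 1 AP-1 motif and 1 TATA box. Over 32817 such regions, 32.7% held a GC box, 12.4% a TATA box, 4.46% an AP-1 motif, 14.0% a nuclear receptor half-site, 7.01% a STAT motif, 3.16% a forkhead motif and 1.12% a T-box motif. A match is a description of the letters only, and its absence from this window says nothing of a factor.

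Partners and receptors of annexins and S100 proteins were counted in the same way. Of 21 listed partners and receptors, 16 had a value, 5 reached a signal of 100 and 0 of these 5 were at least 2-fold higher, against 21.6% of all genes. Their median log2 difference was 0.37, against 0.46 for all genes. Ezr, which encodes the membrane-actin linker ezrin, had 12.59 in the Venus High sample and 11.84 in the Venus Low sample (0.75), the largest of the 5. Plau, the urokinase that activates plasminogen, had 6.83 and 6.33 (0.50, or 0.18 with the floor at 100). Plau reached 100 on the Venus High array only. Bsg, a receptor reported for S100A9 in human cells, had 10.24 and 9.87 (0.37). Myh9, the heavy chain of a non-muscle myosin, had 11.90 and 11.60 (0.31). Cacybp, the calcyclin-binding protein, had 9.10 in the Venus High sample and 8.89 in the Venus Low sample, a difference of 0.21, against 3.15 for S100a6 itself. Below a signal of 100, Ahnak2, which encodes a large scaffold protein, had 5.76 in the Venus High sample and was at the floor in the Venus Low sample, a difference of at least 2.44 and the largest of the 16. The receptor gene Ager had 4.20 in the Venus High sample and 4.04 in the Venus Low sample, and Tlr4 and Fpr2 lay at the floor throughout. The differences of Plau, Bsg, Myh9 and Cacybp lie below 0.66, the shift that median centring subtracts, so they are negative after it.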

How the data were processed

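Gene expression was measured on 1 Affymetrix mouse expression array for each of the Venus High and the Venus Low population of luminal cells, from 250 ng of total RNA each. The deposited values are log2 signals, which the authors normalized and centred for each array with BRB Array software. MAS5 is the tool named by the submitters' processing notes. Neither the scaling factor nor a common level of the arrays was found (not given in the sources used here). Array medians lay at the floor for all 29338 probe sets together. For the 5889 with a signal of at least 100, they were 8.21 for Venus High and 7.55 for Venus Low. Columns of other samples numbered 0.

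Names of probe sets come from the platform annotation, which gives 1 symbol for 22223, more than 1 for 602 and no entry for 6513, with symbols updated through gene identifiers in RefSeq. The probe set with the highest mean of both arrays stood for its gene. A gene was counted when its log2 difference was at least 2 (4-fold) and its higher signal at least 100. With 1 array per population there is no test. Every annexin or S100 gene that reached a signal of 100 is named with both values, and from each other list up to 4 genes with the largest differences. Genes named beyond this rule, such as Cacybp, Ahnak2, Ager and the genes at the floor, were picked after seeing their values. The genes and lists were chosen with earlier results of these data known. As alternatives, the arrays were centred on their medians or quantile-normalized, the floor was set at 32 or 100, the median over probe sets was taken per gene, probe sets of the _x_at, _s_at and _a_at types were left out, and use was made of another signal minimum (50, 200 or none) and another fold (2 or 8). Scripts ran in Python 3.11.15 (numpy 2.4.6, pandas 2.3.3, matplotlib 3.10.9) and were tested on simulated data. The simulated differences were placed in genes with a Venus Low signal above 100, and lower probe sets were kept. The simulation therefore did not cover genes near the floor or the lack of lower probe sets.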

Additional observations from a re-analysis of the deposited data

How the results depend on the processing

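Between the 2 arrays, median centring lowers every difference by 0.66, and with quantile normalization it moved all 12 annexin and S100 genes that reached a signal of 100 by more than the SD between probe sets. Both settings were computed on a table without probe sets lower in the Venus High sample. The shift therefore cannot tell a difference in level between the arrays from the lack of such probe sets. The count of annexin genes at least 4-fold higher, 1 (Anxa3), was 0 under both and 0 at an 8-fold threshold, and 2 at a 2-fold threshold. The S100 count of 2 fell to 1 without the probe sets of the _x_at, _s_at and _a_at types, since the only probe set of S100a6 is then left out, and was 2 under every other setting. The annexin median of 0.52 was -0.14 with centred arrays, -0.17 with quantile normalization, 1.06 with the median of probe sets (5 genes), 0.15 with a signal minimum of 200 (5 genes) and 0.12 with no minimum (8 genes). The S100 median of 0.78 was 0.12 with centred arrays, 0.10 with quantile normalization and 0.33 with no minimum (11 genes, with S100pbp among them). After median centring and after quantile normalization, 6 of the 12 genes were negative (Anxa1, Anxa2, Anxa7, S100a10, S100a13 and S100a16), and the median over all 3847 genes was -0.20 and -0.22. The share of all genes at least 4-fold higher was 5.74% and 5.59% under these settings, and 4.39% with the floor at 100. No replicate could be left out and no paired analysis was possible because there was 1 array per population.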

Other observations

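Other calcium sensors and membrane proteins were counted in the same way. Of 25 listed genes with C2 domains or roles in membrane repair, 20 had a value, 8 reached a signal of 100 and 2 of these 8 were at least 4-fold higher in the Venus High sample, with a median log2 difference of 0.65, against 8.58% and a median of 0.46 over all 3847 genes. Both, Syt7 and Sytl2, reached 100 on the Venus High array only. Syt7, a synaptotagmin that acts as a slow calcium sensor for exocytosis, had 8.56 in the Venus High sample and 3.91 in the Venus Low sample (4.65, or 1.91 with the floor at 100). Sytl2, which encodes a Rab27 effector of granule docking, had 7.29 in Venus High cells and was at the floor in Venus Low cells, a difference of at least 3.96 (0.64 with the floor at 100). With the floor at 100 neither was 4-fold higher. Myof, which encodes the membrane repair protein myoferlin, had 7.67 in the Venus High sample and 6.91 in the Venus Low sample (0.75). Sytl1 had 6.71 and 6.01 (0.70, or 0.07 with the floor at 100). Like Syt7 and Sytl2, Sytl1 reached 100 on the Venus High array only. These genes therefore entered the count and the median of 0.65 through the array where they are high.

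Of 34 EF-hand genes outside the S100 family, 21 had a value, and 10 reached a signal of 100. None of the 10 passed 4-fold (0 genes) and 3 passed 2-fold, with a median log2 difference of 0.53, against 8.58% at 4-fold, 21.6% at 2-fold and a median of 0.46 over all genes, so this list lay near the level of all genes. Cib1, a calcium- and integrin-binding protein gene, had 9.61 in the Venus High sample and 7.78 in the Venus Low sample (1.82). Capn1, a calpain protease gene, had 6.87 in the Venus High sample and 5.53 in the Venus Low sample (1.34, or 0.23 with the floor at 100). Sdf4, which encodes a calcium-binding protein of the Golgi lumen, had 9.76 in the Venus High sample and 8.45 in the Venus Low sample (1.31), and Sri, which encodes sorcin, had 10.18 and 9.44 (0.74).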
